A study of Mus musculus with 16 samples.

Results

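The chromatin around the genes of 10 transcription factors of naive pluripotency, Esrrb, Klf2, Klf4, Klf5, Tfcp2l1, Tbx3, Zfp42, Prdm14, Nr0b1 and Nr5a2, was described from a list of accessible regions in mouse embryonic stem (ES) cells. A region was a member when its centre lay in the body of one of these genes or within 100 kb of any of its annotated transcription start sites (TSSs). By this rule 150 of the 81132 regions belonged to the 10 loci, and no region belonged to more than a single locus. The regions came from ATAC-seq, in which the Tn5 transposase inserts adapters into open DNA, of 12 libraries. Cells in G1 were sorted for high (H) or low (L) SOX2 (S) and OCT4 (O) into the groups SHOH, SHOL, SLOH and SLOL, with 3 replicates in each group. The cells were SBROS, a clonal line of CGR8 background in which both Sox2 alleles carry a SNAP-tag and a single Oct4 allele carries a HALO-tag. SBROS was made from the line SBR, which carries reporters of SOX1 (eGFP) and of Brachyury (mCherry). All groups were grown in serum with LIF, 3 µM CHIR99021 and 0.8 µM PD184352, were stained with 100 nM of a HALO dye and 12 nM of a SNAP dye, and were gated for G1 by Hoechst.

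The list pools the libraries and holds only positions. The depth of each library is unknown from it, no level or replicate error belongs to any region, and the 4 sorted groups could not be compared. The labelled cell type could not be checked by expression. Presence of a region was recorded at core and lineage genes in its place. The authors dropped peaks that overlapped a ChIP-seq input peak, so a missing region does not show that the DNA was closed. A region covered a TSS of Pou5f1, which encodes OCT4. The closest region to the Sox2 TSS was 767 bp wide and ended 243 bp before it, and the closest to a Nanog TSS was 4218 bp away. Regions also covered a TSS of Pax6, of T and of Gata6, genes of neural, mesodermal and endodermal lineages, so coverage of a TSS did not separate these genes from the core genes. A single covered TSS sufficed for a gene, and genes with more TSSs had more chances. Annotated TSSs numbered 24 for Pax6, 6 for Gata6 and 3 for T, beside 6 for Pou5f1, 3 for Nanog and 1 for Sox2.

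In naive ES cells a network of transcription factors sustains self-renewal under LIF and inhibition of MEK and GSK3. LIF acts through STAT3, which is known to induce Klf4 and Tfcp2l1, while GSK3 inhibition relieves the repression of Esrrb, Klf2 and Tfcp2l1 by TCF7L1. OCT4 and SOX2 bind many enhancers of these genes together, at a SOX motif joined to an octamer motif.

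The stretches of sequence that follow are shown because they hold the letters recognised by factors of this network inside member regions. They were read from the RefSeq sequence of GRCm38.p6, run 5′ to 3′ on the strand named, and reach 30 bases to each side of the match, which is in capitals. TCAAGGTCA, the letters bound by ESRRB and by NR5A2, occurred 8 times in 7 member regions, and 5 of the matches lay in Esrrb itself.
Esrrb, chr12:86365560-86365628, plus strand: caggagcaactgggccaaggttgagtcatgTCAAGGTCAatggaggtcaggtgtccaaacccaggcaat
Esrrb, chr12:86386053-86386121, minus strand: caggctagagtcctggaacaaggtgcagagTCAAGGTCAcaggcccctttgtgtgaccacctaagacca
Esrrb, chr12:86501687-86501755, minus strand: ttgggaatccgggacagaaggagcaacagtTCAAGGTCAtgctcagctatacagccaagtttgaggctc
Esrrb, chr12:86502029-86502097, plus strand: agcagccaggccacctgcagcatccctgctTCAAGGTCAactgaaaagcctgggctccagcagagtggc
Esrrb, chr12:86504489-86504557, plus strand: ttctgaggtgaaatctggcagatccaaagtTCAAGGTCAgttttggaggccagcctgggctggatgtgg
Klf2, chr8:72271817-72271885, minus strand: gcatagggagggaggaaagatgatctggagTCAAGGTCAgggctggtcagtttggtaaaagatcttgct
Prdm14, chr1:13115343-13115411, plus strand: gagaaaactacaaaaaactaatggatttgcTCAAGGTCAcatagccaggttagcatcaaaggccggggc
Prdm14, chr1:13146650-13146718, minus strand: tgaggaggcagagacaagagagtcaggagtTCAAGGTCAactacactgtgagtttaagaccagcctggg
The match at chr12:86501687-86501755, the match at chr12:86504489-86504557 and the second of the Prdm14 matches lay in sequence that RefSeq marks as repeat, and the others did not.

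The SOX-octamer composite was searched as CATTGT, 1 base, then ATGCAAAT, with at most 2 mismatches. It occurred once at Klf5 and once at Prdm14, each time with 2 mismatches, and the Prdm14 match lay in a repeat.
Klf5, chr14:99354179-99354253, minus strand: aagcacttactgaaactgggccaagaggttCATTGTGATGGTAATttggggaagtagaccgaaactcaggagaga
Prdm14, chr1:13088147-13088221, minus strand: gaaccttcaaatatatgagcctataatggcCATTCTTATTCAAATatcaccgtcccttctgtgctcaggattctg

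The STAT motif TTCCNGGAA occurred in 4 member regions, 2.67% (1.04 to 6.655%) beside 1.89% of all regions, and none of the matches lay in a repeat. Its letters read alike on both strands.
Klf5, chr14:99354895-99354963, plus strand: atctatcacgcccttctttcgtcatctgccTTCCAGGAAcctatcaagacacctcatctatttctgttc
Nr5a2, chr1:136991142-136991210, plus strand: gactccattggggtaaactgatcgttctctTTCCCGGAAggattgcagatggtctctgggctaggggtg
Prdm14, chr1:13094711-13094779, plus strand: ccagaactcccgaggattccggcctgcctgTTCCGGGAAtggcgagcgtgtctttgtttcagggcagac
Zfp42, chr8:43320584-43320652, plus strand: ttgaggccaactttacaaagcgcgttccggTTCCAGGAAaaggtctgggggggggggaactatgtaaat

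Promoters were matched for 7 of the 10 genes in the RefSeq table. The 250 bases before the start are shown for Zfp42, the member whose promoter held the octamer ATGCAAAT, and for Tfcp2l1, which held 2 KLF motifs (GGGNGTGG). Capitals mark these motifs in either orientation, and a region covered the start of both genes.
Zfp42, chr8:43307010-43307259, minus strand: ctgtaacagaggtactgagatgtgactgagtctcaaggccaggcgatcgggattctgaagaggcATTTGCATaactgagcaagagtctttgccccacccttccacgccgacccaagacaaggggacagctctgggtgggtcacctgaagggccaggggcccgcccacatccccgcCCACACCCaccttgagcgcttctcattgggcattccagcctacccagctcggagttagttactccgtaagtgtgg
Tfcp2l1, chr1:118627695-118627944, plus strand: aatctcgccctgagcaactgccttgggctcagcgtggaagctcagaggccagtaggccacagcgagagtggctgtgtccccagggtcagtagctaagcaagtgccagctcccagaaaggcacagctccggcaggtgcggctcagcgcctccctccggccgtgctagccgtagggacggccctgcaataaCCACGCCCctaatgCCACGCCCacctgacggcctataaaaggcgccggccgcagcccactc
The octamer was found for 1 of the 7 matched genes and a KLF motif for 3, Nr5a2 being the third. Esrrb and Nr5a2 had more than 1 promoter each. For Nr5a2 the KLF motif lay at an internal TSS, and the promoter at its outermost TSS held none. These tallies are per gene, whereas the shares of all promoters are per promoter. The 2 promoters shown were chosen for their motifs. Of all 32851 promoters in the table, 1.6% held the octamer and 15.9% a KLF motif in the same 250 bases.

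The number of regions differed widely among the loci, from 3 at Nr0b1 to 23 at Tbx3. Windows differ in length, so counts were also expressed per 100 kb of window. Tbx3 had 11 regions per 100 kb, Prdm14 9.50, Klf5 9.48, Klf2 8.50 and Zfp42 7.50. Klf4 followed with 5.98, Esrrb with 5.83, Nr5a2 with 5.46, Tfcp2l1 with 5.00 and Nr0b1 with 1.50. An exact Poisson 95% interval ran from 14.6 to 34.5 around the count of Tbx3 and from 0.619 to 8.77 around that of Nr0b1. These 2 intervals did not overlap, whereas the interval of Tfcp2l1, from 4.80 to 18.4, overlapped both. The intervals cover counting error only, and regions lie in clusters, so neighbours in this order cannot be separated. Tbx3 and Nr0b1 were picked as the ends of the order, so the gap between their intervals was not a test that the loci differ.

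The median of the 10 genes was 6.74 regions per 100 kb (95% interval 5.00 to 9.50), beside 5.00 over all 21938 protein-coding genes. Among the 13467 protein-coding genes with a region over a TSS the median was 5.99, so the interval reached both values and the 10 genes were not separated from either. With only regions of at least 200 bp the order turned, with 4.74 for the 10 genes and 4.855 for genes with a covered TSS. Outside promoters the 10 genes had a median of 6.00 regions per 100 kb (4.09 to 8.48), beside 3.34 over all protein-coding genes and 3.81 over those with a covered TSS. For every gene, promoters ended 100 bp past a TSS. Regions over the starts of Klf2, Tfcp2l1 and Nr0b1 had centres 160, 174 and 421 bp past it, so they counted as outside. By density, Tbx3 lay above 92.4% of protein-coding genes and Nr0b1 above 15.1%. Nr0b1 lies on the X chromosome, where the median gene also had 1.50 regions per 100 kb.

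**Figure D1:**
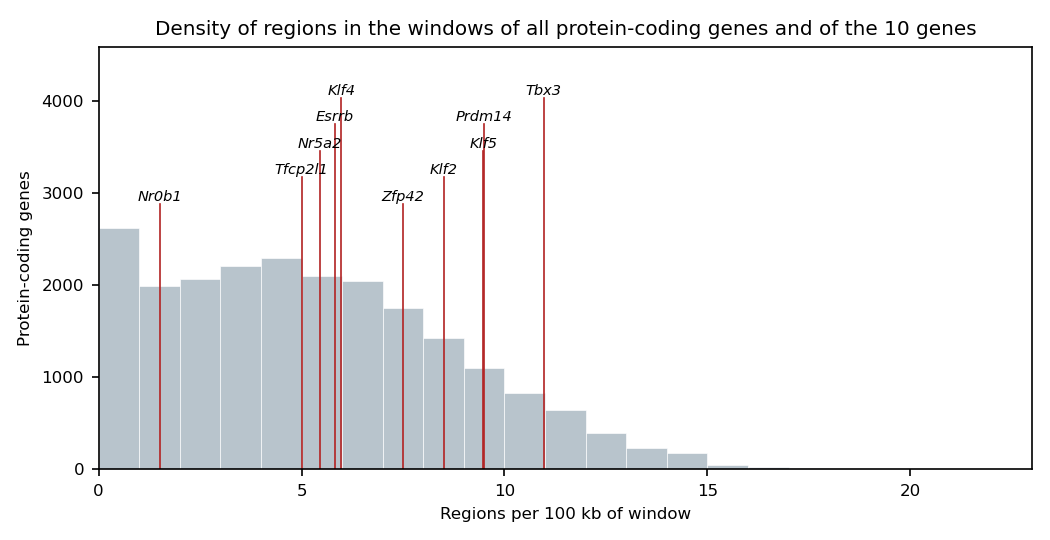
Regions per 100 kb of window (x axis) for all 21938 protein-coding genes (bars, number of genes on the y axis), with the 10 genes as vertical lines whose heights only separate the names. Nr0b1, at 1.50, and Tbx3, at 11, are the ends of the range of the 10 genes.

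Each of the 10 genes had a region over at least 1 annotated TSS, as had 61.4% of protein-coding genes. The same held for 11 of 12 further genes of the naive network and for 1 of the 3 core genes. The gene's outermost start was covered in 8 of the 10 member genes, and the exceptions were Esrrb and Nr5a2. At Nr5a2 the coverage rested on a region of 178 bp. Across the loci, 14% of the regions had their centre in a promoter (95% Wilson interval 9.34 to 20.5%), from 1000 bp before to 100 bp after a TSS of any gene, beside 21% of all regions. Intergenic centres made up 45.3% (37.6 to 53.3%) beside 35.2%, introns 36% beside 35% and exons 4.67% beside 8.76%. These shares were not tested, and the intervals cover counting error only.

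**Figure D2:**
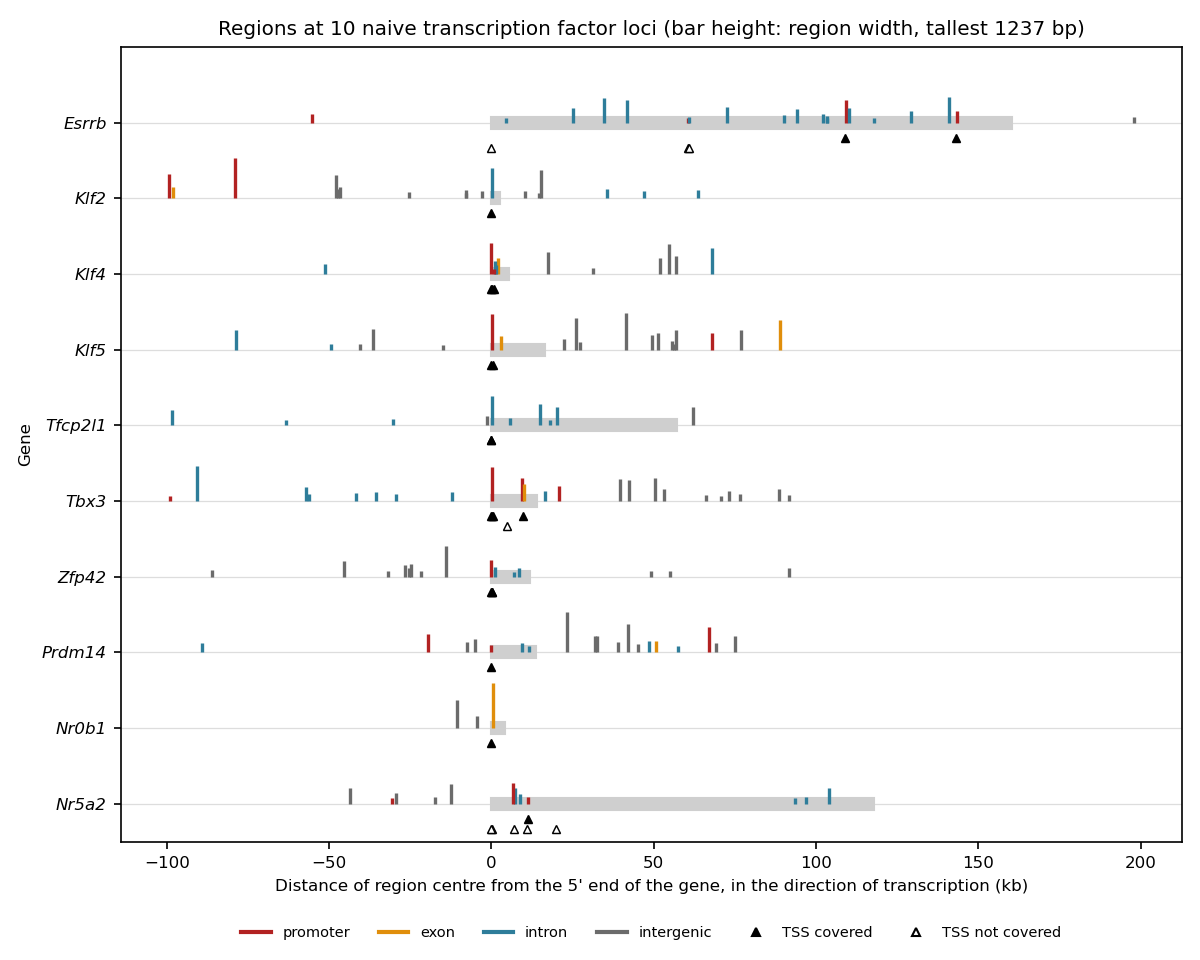
Position of each region centre relative to the 5′ end of its gene (x axis, kb in the direction of transcription) for the 10 genes (y axis), with bar height in proportion to region width and colour by class; grey boxes are gene bodies and triangles TSSs. Regions gather inside the body of Esrrb, downstream of Prdm14 and Klf5, and upstream of Zfp42.

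Among the nuclear receptors, Esrrb, an orphan receptor that activates many self-renewal genes, had its regions inside the gene. Of 20 regions, 18 lay in the body of 160512 bp at chr12:86361117-86521628. None covered the outermost TSS, whose closest region (chr12:86365526-86365657, intron, 132 bp) began 4409 bp away and held a TCAAGGTCA. Regions covered the internal TSSs at 86470117 and 86504409, with widths of 622 and 328 bp, and another ended 7 bp short of the TSS at 86421644.

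The accessible starts of Esrrb differed in base composition. The region over the TSS at 86470117 had a CpG content of 0.735 of that expected from its C and G, and the region over the TSS at 86504409 had 0.136. The widest Esrrb region, 712 bp at chr12:86501656-86502367, lay in an intron 2.40 kb before the latter TSS and held 2 copies of TCAAGGTCA. An intronic region of 392 bp, 25.1 kb into the gene at chr12:86386024-86386415, held a further copy. The longest run of regions with gaps of at most 10 kb had 8 members over 28.1 kb, all in the gene. The region farthest from any Esrrb TSS lay 55.2 kb upstream, in the promoter of the lincRNA gene 4732487G21Rik.

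Nr5a2, a nuclear receptor that binds the same letters as ESRRB, showed an uneven distribution over its body of 117878 bp at chr1:136842571-136960448. Its 2 outermost TSSs had no region within 6183 bp. A region of 178 bp (chr1:136949063-136949240) covered the internal TSS at 136949173, in the 5′ UTR, with 70.8% G and C. The widest Nr5a2 region, 557 bp at chr1:136953641-136954197, lay 11 bp upstream of the TSS at 136953630. It held 3 KLF motif matches, some of which overlapped each other. Within the body a stretch of 82.2 kb had no region, and 3 intronic regions followed it. The farthest of these lay 84.2 kb from the nearest Nr5a2 TSS. Upstream, 5 regions stood 12.6 to 43.4 kb before the gene, and that of 159 bp at chr1:136991151-136991309 held the STAT letters. The small nuclear RNA gene Gm23763 was the closest gene to 4 regions and the pseudogene Gm17781 to 3.

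Nr0b1 encodes DAX1, a receptor that lacks a usual DNA-binding domain and interacts with OCT4 and NR5A2. It had 3 regions, fewest of the 10 genes, within 12 kb. The region over its TSS, chrX:86191567-86192803, was the widest of all 150 at 1237 bp, and its centre lay in a coding exon. A region of 321 bp lay 4.40 kb upstream. The farthest, 754 bp wide and 10.6 kb upstream at chrX:86180835-86181588, was 99.2% repeat, and the other 2 were 0% repeat.

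The Krüppel-like factors Klf2, Klf4 and Klf5 have overlapping roles in self-renewal and differed in where their regions lay. Klf2, whose protein is stabilised by MEK inhibition, had 10 of 17 regions upstream, 1 in the gene and 6 downstream. The region over its TSS was 824 bp wide (chr8:72318781-72319604). Its G and C content was 67.6%. A group of 3 regions stood 46.6 to 47.9 kb upstream, and the middle region (chr8:72271737-72271986, 250 bp) held TCAAGGTCA. The widest region of the Klf2 window, 1086 bp, was the promoter of Ap1m1, and the farthest, 99.2 kb upstream, that of Fam32a. Other genes were closest to many regions here, with 4 for the pseudogene Gm39197 and 3 for Eps15l1.

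Klf4, a target of LIF and STAT3, had a compact cluster at the gene. There 5 regions lay within 2941 bp, of which they covered 2002 bp. Of 2 promoter regions, 1 (chr4:55532250-55533083, 834 bp) was the widest at this locus. It had 75.7% G and C, the highest of all 150 regions. The other (chr4:55531717-55531857, 141 bp) covered the TSS at 55531770 and had its centre nearest to a TSS, 17 bp away. Downstream, 3 intergenic regions stood 51.2 to 56.2 kb from the nearest Klf4 TSS, with widths of 428, 804 and 490 bp. For these 3 the closest gene was the small nucleolar RNA gene Gm22150. The farthest Klf4 region, 696 bp at 67.3 kb, held 2 SOX motifs (CCATTGT or CCTTTGT).

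Klf5 had 12 of 19 regions downstream of the gene and 5 upstream. Its TSS region was 959 bp wide, at chr14:99298352-99299310, with its centre in the 5′ UTR. The widest, 1009 bp at chr14:99339678-99340686, lay 41 kb from the nearest TSS and held an octamer and a TCF and LEF motif (CTTTGAT). It opened a run of 6 regions over 16.1 kb. In that run, the composite (chr14:99354061-99354300, 240 bp) and the STAT letters (chr14:99354783-99354933, 151 bp) stood in adjacent intergenic regions at 55.0 and 55.7 kb. The farthest region lay 88.4 kb downstream. The small nuclear RNA gene Gm22984 was the closest gene to 7 regions and the pseudogene Gm4412 to 4.

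Tfcp2l1, a CP2-family factor downstream of LIF and of GSK3 inhibition, had 10 regions. Of these, 5 lay in the gene and 4 upstream. The region over its start (chr1:118627726-118628513, 788 bp) was the widest and held 4 KLF motifs. An intronic region of 501 bp at chr1:118647961-118648461, 20.3 kb into the gene, held 2 matches to the TFCP2L1 motif, searched as 2 copies of CCAG 6 bases apart. The farthest region, 98.5 kb upstream, was in an intron of Clasp1, and Clasp1 was the closest gene to 3 regions.

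Tbx3, a T-box factor that can sustain self-renewal when LIF signalling is low, had the most regions, 23. There were 12 downstream of the gene, 8 upstream and 3 inside it. A region of 931 bp covered 3 TSSs at the start of the gene (chr5:119670259-119671189), and a region of 633 bp covered the internal TSS at 119680249. The widest, 951 bp, lay 90.8 kb upstream in an intron, and the farthest was 98.9 kb upstream in the promoter of Tbx3os1. Non-coding neighbours were the closest genes to most regions, with 10 for Tbx3os2 and 4 for Tbx3os1. The T-box letters AGGTGTGA occurred at chr5:119709836-119710441, 29.9 kb from the nearest Tbx3 TSS.

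Zfp42 encodes REX1, a zinc finger protein used as a marker of the naive state. All 3 of its TSSs lay in a region of 453 bp (chr8:43306841-43307293), which held the octamer. Upstream, 6 regions formed a run of 18.3 kb, from 14 to 31.8 kb before the gene. The widest, 843 bp at chr8:43320550-43321392, was the nearest of the run to the gene and held the STAT letters and 3 KLF motifs. The farthest lay 91.8 kb downstream, and Zfp42 was the closest gene to 11 of its 15 regions.

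Prdm14, a PR-domain protein that represses FGF signalling and DNA methyltransferase genes, had 12 of 19 regions downstream. Its TSS region was narrow, at 210 bp (chr1:13127061-13127270), with a CpG content of 0.346 of that expected. The widest, 1105 bp at chr1:13103442-13104546, lay 23.2 kb downstream and held 4 KLF motif matches, some of which overlapped each other. A run of 12 regions reached over 52.6 kb, the longest run of the 10 loci by number. It included the composite (chr1:13088068-13088343, 39.0 kb downstream, 73.9% repeat) and the STAT letters (chr1:13094364-13094798, 32.6 kb downstream). TCAAGGTCA stood in an intronic region (chr1:13115371-13115545) and in the promoter of Ncoa2 (chr1:13146313-13146822). The lincRNA gene Gm29283 was the closest gene to 8 regions and Gm37162 to 3, and the farthest region lay 89.3 kb upstream.

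Widths overlapped among the loci. The median was 307 bp (259 to 365 bp), an interval that included the 355 bp of all regions, and 28.0% of the member regions were under 200 bp (21.4 to 35.7%) beside 19.8%. Promoter regions had a median of 458 bp at these loci and 600 bp in the whole list, and intronic regions 259 and 307 bp. Exonic regions went the other way, with 440 and 383 bp from 7 member regions, and intergenic regions had 301 and 321 bp. The highest medians of a locus were 754 bp at Nr0b1, from 3 regions, and 458 bp at Klf5. A neighbour within 5 kb, measured between centres, was found for 64.7% of the member regions (56.7 to 71.9%) and for 45.1% of all regions. Repeats made up over 50% of the sequence in 14% of the member regions and in 13.7% of all regions.

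**Figure D3:**
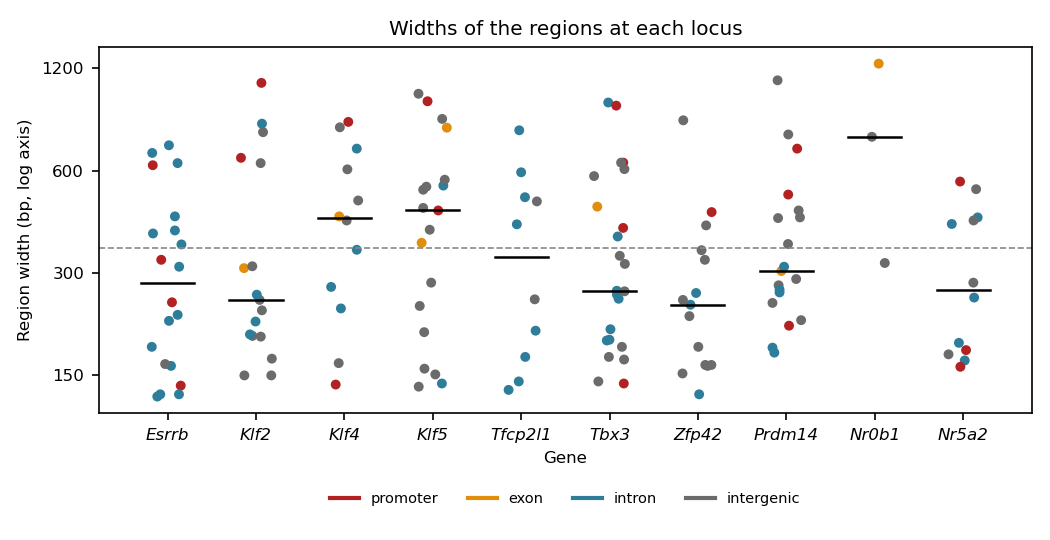
Width of each region (y axis, bp, log axis) at the 10 loci (x axis), coloured by class, with the median of each locus as a black line and that of all regions, 355 bp, dashed. The widths of all 10 loci overlap, and the widest region, 1237 bp, is at Nr0b1.

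The member gene had the closest TSS for 42.7% of its regions (35 to 50.7%). Among protein-coding genes alone it was the closest for 84.0% (77.3 to 89.0%). The regions that separate the measures were nearest to non-coding genes or pseudogenes, as at Klf5, which was closest for 4 regions by the first measure and 18 by the second. Klf2 was closest for 5 regions by both.

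Motif letters were searched on both strands in the 300 bp around each centre, which reach beyond regions narrower than that. TCAAGGTCA occurred in 9 of 150 windows, 6.00% (3.19 to 11%), beside 1.84% of all regions. Outside promoters the shares were 5.43% and 2.16%. Of the 9 windows, 4 were at Esrrb, and in 2, both at Klf5, the letters lay outside the region itself. Searched over whole regions, TCAAGGTCA was found in 7 of 150, 4.67% (2.28 to 9.32%) beside 2.24%, so the interval barely cleared the share of all regions. Of these 7, 4 were at Esrrb, which held 20 of the 150 regions. The KLF motif was found in 22.7% (16.7 to 30.0%) beside 18.1%, and the octamer in 4.00% (1.85 to 8.45%) beside 2.15%. The SOX motif had nearly equal shares, 12.7% in both. The composite was found in 1.33% beside 0.726%, STAT in 1.33% beside 1.31%, since the matches at Prdm14 and Zfp42 lay outside the 300 bp, and TFCP2L1 in 3.33% beside 4.67%. TCF and LEF had 4.67% beside 4.57%, T-box 1.33% beside 1.66%, and CTCF 3.33% beside 5.50%. The PRDM14 letters GGTCTCTAA occurred in 0 of 150 windows, which allows up to 2.5% by the Wilson interval, beside 0.196% of all regions. Of the 11 motifs in the 300 bp windows, the intervals of all but TCAAGGTCA included the share of all regions. Each match describes letters only, binding was not measured here, and 5 of the 8 matches inside member regions came from the Esrrb locus alone. Regions of a locus are not independent, and no difference in motif share was tested.

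**Figure D4:**
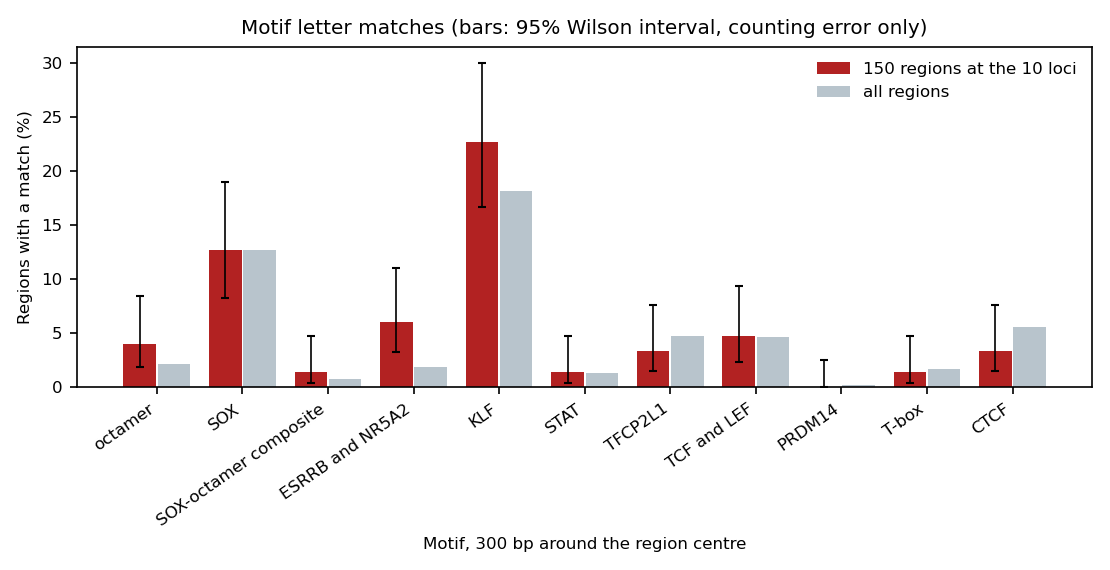
Share of regions with a match to each of 11 motifs (y axis, %) in the 300 bp around the centre, for the 150 member regions (red, with 95% Wilson intervals for counting error) and all 81132 regions (grey). The share for ESRRB and NR5A2, 6.00%, has an interval above the 1.84% of all regions, and 4 of its 9 windows were at Esrrb.

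Other gene lists overlapped the member genes in density, and each held a gene with a higher density than any member. The median was 7.93 regions per 100 kb for 12 further genes of the naive network, from 3.21 at Stat3 to 13.9 at Tcf7l1. Gbx2 had 14 regions, Sall4 26, Tcl1 7, Dppa3 25, Dppa5a 17 and Fgf4 27. Fbxo15 had 17, and the LIF pathway genes Il6st, Lifr and Socs3 had 15, 11 and 20. The core genes Pou5f1, Sox2 and Nanog had 24, 12 and 32 regions. Their median was 11.8 per 100 kb, above every member gene, with 16 at Nanog. Nanog, Dppa3 and Tcf7l1 lie on chromosome 6, which had the most regions per 100 kb of any chromosome, 4.51 beside 3.06 overall. The median gene there had 6.00 per 100 kb, fewer than on chromosome 15, with 6.455, and on chromosome 8, with 6.336, where Klf2 and Zfp42 lie, and 16 regions were counted for both Nanog and Dppa3.

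Lists of later states were described in the same way. The 10 formative and primed genes had a median of 9.50 regions per 100 kb and a maximum of 11.2 at Lef1, and 8 had a covered TSS. Within that list Lef1 and Dnmt3b had 24 regions each, Zic2 and Tead2 22, Pou3f1 20 and Foxd3 18. Fgf5 and Otx2 had 11, Sall2 12 and Sox3 3. The 9 neuroectoderm genes had a median of 6.50 regions per 100 kb and a maximum of 12 at Nes, and 6 had a covered TSS. Nes had 24 regions, Hes5 22, Sox1 15, Neurod1 14, and Pax6, Neurog2 and Zic1 13 each. Olig2 and Pax3 had 6 each. The range of the member genes, 1.50 to 11, overlapped those of all 4 lists. Outside promoters the medians were 9.37 for the core genes, 6.30 for the further naive genes, 6.04 for the formative and primed genes and 4.93 for the neuroectoderm genes, beside 6.00 for the members.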

How the data were processed

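The data were 12 ATAC-seq libraries; another 4 samples, of ChIP-seq, are not analysed here. The authors aligned reads to mm10 with STAR (2.5.3a), removed duplicates with Picard, called peaks with MACS2 (2.1.1.20160309), used BEDOPS to merge peaks across libraries and dropped any that overlapped a ChIP-seq input peak. No shift of read ends for Tn5 is named in the sources used here. The deposited list gives region positions without counts, so replicates and groups were not compared and no test was made.

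Regions were read with Python (3.11.15), numpy (2.4.6), pandas (2.3.3) and scipy (1.17.1) and plotted with matplotlib (3.10.9), using GENCODE M21 and the GRCm38.p6 sequence. Each region was classed by its central base, with promoters taking precedence over exons, then introns. The motif search and windows were first tested on simulated data. Members and lists were chosen with earlier results of these data known. The genes named were the 10 members, genes whose TSS was closest to 3 or more member regions, and fixed lists of naive, core, formative and neuroectoderm genes, of which a single gene was left out of its list's values and is not reported here. Pax6, T and Gata6 were named as lineage genes, and some genes closest to fewer regions because a region named lay in their promoter. Within a locus the widest, nearest and farthest regions and those with a composite, ESRRB and NR5A2 or STAT motif were named; other regions named were chosen after their values were seen. Alternatives were other windows, region definitions, promoters and motif windows.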

Additional observations from a re-analysis of the deposited data

How the results depend on the processing

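Of 36 alternatives for the 7 counts, shares and medians, 29 stayed within 1.5 times the main count or within the 95% interval of the main share or median, and 7 did not. With windows of 200 kb in place of 100 kb, 227 regions belonged to the loci. Regions of at least 200 bp gave a median of 4.74 per 100 kb, beside 4.00 over all protein-coding genes and 4.855 over those with a covered TSS. Promoters of 2500 bp to both sides took in 29.3% of the member regions, beside 36.3% of all regions. The member was the closest gene for 84.0% of regions among protein-coding genes and for 57.8% with windows of 50 kb. A neighbour was found for 86.7% at the wider distance tried, beside 73.2% of all regions, and for 54.9% after regions at most 500 bp apart were joined, beside 34.7%. The wider limits take in more regions by construction. Without any single gene the count lay between 127 and 147. Of 21 alternatives for motif shares, 20 stayed within the interval. With 3 mismatches the composite was found in 7.33% of member regions, beside 4.28% of all. No limit on gaps in a run was planned before the data were seen. The 10 kb limit replaced a wider limit, which gave runs of 18 in place of 12 at Prdm14, 9 in place of 6 at Klf5 and 11 in place of 8 at Esrrb. No paired analysis was possible because the list holds no value for any library, and the depth behind each region is unknown.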
